A study of Mus musculus with 18 samples.

Results

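Cytochrome P450 genes were followed across 3 brain regions of Nrf2 wild-type and Nrf2 knockout mice. Cytochromes P450 are haem-containing monooxygenases that take electrons from a reductase or a ferredoxin and insert an oxygen atom into lipids, steroids, vitamins and foreign compounds. In the brain they are known above all for the turnover of cholesterol, oxysterols, steroids, retinoic acid and fatty acids, while the drug-metabolising families are most abundant in liver. NRF2, encoded by Nfe2l2, is a transcription factor that binds antioxidant response elements and drives genes of glutathione metabolism, quinone reduction and detoxification.

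Members were all genes whose symbol is Cyp followed by a digit and for which a probe was marked well above background by the scanner software on all 3 arrays of at least 1 group. The members were thus chosen by the measured detection marks, so which members were detected in which group is a description and not a finding. Of 80 P450 genes with 108 probes on the array, 45 genes with 54 probes passed. Of the 35 others, 19 were not above background on any array, among them Cyp1a1, Cyp1a2, Cyp24a1, Cyp21a1 and Cyp11b2. Just inside the limit was Cyp2r1, detected on all 3 arrays of knockout cortex alone (-6.01, -5.68 and -6.49). The brighter Cyp2a4 probe was detected on all 3 arrays of wild-type cortex alone (-5.53, -5.44 and -4.89). A second passing Cyp2a4 probe was also detected on all 3 arrays of wild-type brainstem and of knockout hippocampus. Just outside was Cyp2j5, above background on 2 of the 3 knockout brainstem arrays (-5.16, -5.38 and -8.44). These and all later levels are log2 signals relative to the array's 75th percentile, so 0 is the 75th percentile of an array, and levels are compared only between arrays of the same probe. Of the 45 members, 30 were above background on all 18 arrays and 15 on fewer.

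Total RNA came from 129SV male mice kept without stress, Nrf2 wild type or Nrf2 knockout, and from their cortex, hippocampus or brainstem, with 3 arrays of separate RNAs in each of the 6 groups. The labels give neither age nor the extent of each dissection, and they name no allele of the knockout. In bulk tissue, fewer cells of a type and less RNA per cell cannot be told apart. The arrays were single-colour Agilent slides hybridised with Cy3-labelled RNA, and between 65.3% and 75.1% of spots were well above background on each array, lowest on knockout brainstem array 1. The Nfe2l2 probe read 0.79 to 1.39 on the 9 wild-type arrays and -8.39 to -3.62 on the 9 knockout arrays, and the mean level of each list of cortex, hippocampus and brainstem markers was highest on the arrays labelled with that region, although 1 of 8 cortex markers was higher in hippocampus than in cortex in both genotypes. A gene was called where limma's moderated test gave a Benjamini-Hochberg adjusted p under 0.05 over all 22668 genes tested.

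By known role, 5 members act on sterols and bile acids, 3 make steroid hormones, 2 act on vitamin D, 2 clear retinoic acid, 13 oxidise fatty acids and eicosanoids, 19 belong to the drug-metabolising families CYP1 to CYP3, and Cyp20a1 has no settled substrate. RefSeq start-site windows of build GRCm38.p6, running from 250 bases before to 50 bases after the start, existed for 36 of the 45 members and numbered 43. The antioxidant response element core TGACNNNGC, read on both strands, was in 3 of these 43 windows (Cyp2j6, Cyp4f14 and Cyp4f18), against 12.4% of all 32851 windows of the same length. The GC box GGGCGG, on both strands, was in 18 of the 43, against 35.7% of all windows. The xenobiotic response element core GCGTG, on both strands, was in 12 of the 43 against 32.4%, and TATAAA, on the gene's strand only, was in 8 against 8.32%. These motifs were chosen after the values were seen. A match describes the letters and not a bound site.

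The bases before the start are printed for 4 members, chosen after their values were seen: the members with an antioxidant response element core before the start, because the design removes NRF2, and the cholesterol hydroxylases Cyp46a1 and Cyp27a1, because their levels ran in opposite directions between cortex and brainstem. Capitals mark the antioxidant response element core in the Cyp4f14 and Cyp4f18 sequences and the GC boxes of either strand in the others. The Cyp4f14 stretch is chr17:32917088-32917337 on the minus strand. It belongs to 1 of the 4 start-site windows of Cyp4f14, the only window of the gene with a match, which starts 127 bases before that start site. The Cyp4f18 stretch is chr8:72009627-72009876 on the minus strand, with its match starting 140 bases before. The Cyp46a1 stretch, chr12:108334066-108334315 on the plus strand, is 67.6% G and C and holds 4 GC boxes. The Cyp27a1 stretch, chr1:74713285-74713534 on the plus strand, is 54% G and C and holds 1 GC box, starting 28 bases before the start site.
Cyp4f14: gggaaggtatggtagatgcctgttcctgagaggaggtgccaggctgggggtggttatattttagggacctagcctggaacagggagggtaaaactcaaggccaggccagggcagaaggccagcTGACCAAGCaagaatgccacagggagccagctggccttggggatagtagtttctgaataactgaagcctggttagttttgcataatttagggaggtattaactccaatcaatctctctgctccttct
Cyp4f18: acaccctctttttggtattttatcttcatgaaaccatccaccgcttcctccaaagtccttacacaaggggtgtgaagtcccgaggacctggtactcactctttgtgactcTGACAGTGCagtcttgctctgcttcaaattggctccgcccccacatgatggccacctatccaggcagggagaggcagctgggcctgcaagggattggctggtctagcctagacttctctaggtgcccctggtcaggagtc
Cyp46a1: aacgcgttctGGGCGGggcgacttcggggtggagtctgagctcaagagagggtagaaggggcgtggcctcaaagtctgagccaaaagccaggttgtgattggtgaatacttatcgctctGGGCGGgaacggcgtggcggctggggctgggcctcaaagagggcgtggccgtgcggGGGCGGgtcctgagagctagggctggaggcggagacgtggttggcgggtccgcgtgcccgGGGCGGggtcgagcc
Cyp27a1: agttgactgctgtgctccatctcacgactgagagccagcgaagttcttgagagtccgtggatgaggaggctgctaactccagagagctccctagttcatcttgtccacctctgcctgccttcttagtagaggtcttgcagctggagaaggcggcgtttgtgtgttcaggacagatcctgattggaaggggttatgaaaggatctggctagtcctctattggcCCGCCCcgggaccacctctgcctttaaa

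The first comparison asked how far P450 expression depends on NRF2 in the unstressed brain. No member was called between knockout and wild type in cortex, hippocampus or brainstem, or in the mean of the 3 regions. The share of all genes called was 0.0309% in cortex, 0.0176% in hippocampus, 0.0309% in brainstem and 0.0529% for the mean of the regions, so 0 of 45 is near what the whole array gave. At an unadjusted p under 0.05 there were 2, 2, 3 and 5 members, against 2.19%, 1.33%, 2.96% and 6.95% of all genes. The count of called members was 0 in each of the alternatives run. In the same fit, 4 of 19 measured NRF2 target genes (Gstm1, Gstm3, Osgin1 and Aox1) were lower in the knockout in the mean of the regions. The target list was made with earlier results of these data known, so these calls are not an independent check of the test. The same test on simulated arrays of the cortex comparison called 33 of 50 genes changed by 1 on the log2 scale and 9 of 50 changed by 0.5. The simulated arrays held 200 changed genes, with changes up to 4, and noise drawn independently for each array. The real cortex comparison had 7 calls over all genes, so its cutoff was stricter. The simulated rates therefore cannot be read as the power of the real comparison.

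The intervals show what size of change the arrays leave room for. For all 30 members above background on every array, the 95% interval of the mean knockout difference lay within 2-fold in either direction, and for 28 of the 30 within 1.5-fold. The fit treats the arrays of different regions as independent. If the same mice gave all regions, which the labels leave open, the intervals of the mean could be too narrow. Within single regions the intervals were wider: 28 in cortex, 29 in hippocampus and 28 in brainstem lay within 2-fold, and 17, 20 and 17 within 1.5-fold. Of the 15 members detected on fewer arrays, 6 in cortex, 8 in hippocampus and 6 in brainstem had intervals within 2-fold. Within 1.5-fold there were 2, 1 and 1 of them. For the mean of the regions, 11 of the 15 had intervals within 2-fold and 6 within 1.5-fold. For the same mean, the median difference over the members was -0.02, with 20 above 0 and 25 below, and the median over all genes was 0.00493.

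**Figure D1:**
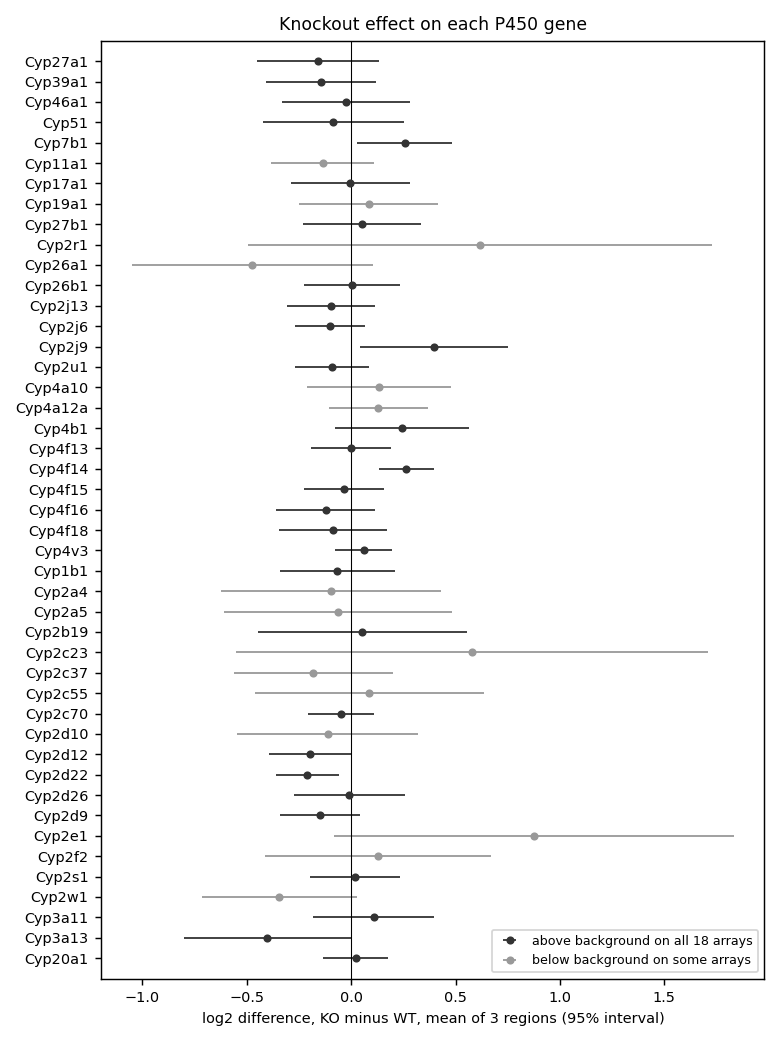
Mean knockout difference of each of the 45 P450 genes. Points are the log2 difference, knockout minus wild type, averaged over cortex, hippocampus and brainstem, bars are 95% intervals from limma, and grey marks the 15 members below background on some arrays. The 30 black intervals all lie between -1 and 1, and the widest intervals belong to the grey members Cyp2c23, Cyp2r1 and Cyp2e1.

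The smallest p was that of Cyp4f14, a fatty acid and leukotriene hydroxylase. Its wild-type levels were 0.74, 0.89 and 0.82 in cortex, 0.28, 0.51 and 0.45 in hippocampus, and 0.74, 0.91 and 0.70 in brainstem. Its knockout levels were 1.24, 1.21 and 1.12 in cortex, 0.54, 0.59 and 0.81 in hippocampus, and 0.79, 0.99 and 1.12 in brainstem. The knockout arrays lay above all wild-type arrays in cortex and hippocampus and overlapped them in brainstem. The differences were 0.37 in cortex, 0.24 in hippocampus and 0.18 in brainstem, each with a standard error of 0.11. The mean difference was 0.26 with a standard error of 0.062 and a 95% interval of 0.13 to 0.40, and it did not pass (limma, adjusted p = 0.461). With the replicate number as a block the adjusted p was 0.134, and over the alternatives it ran from 0.134 to 1.0. Within slides the cortex difference was 0.41 on slide 4 and 0.30 on slide 5, and the brainstem difference was 0.06 on slide 1 and 0.42 on slide 2.

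The other 3 members with the smallest p were Cyp2d22, a drug-metabolising P450 (mean difference -0.21, standard error 0.070), Cyp7b1, an oxysterol and neurosteroid hydroxylase (0.26, standard error 0.11), and Cyp2j9, an arachidonic acid epoxygenase of brain (0.40, standard error 0.17). Each had an adjusted p of 0.708 by limma. Cyp7b1 read 1.61, 1.65 and 1.66 in wild-type cortex and 2.35, 1.79 and 1.96 in knockout cortex, and 1.5, 1.60 and 1.53 against 1.74, 1.71 and 2.24 in brainstem. The knockout values lay above the wild-type values in these regions, and the hippocampal values overlapped. Cyp2j9 read 1.67, 3.05 and 3.05 in wild-type brainstem and 3.0, 3.21 and 3.60 in knockout brainstem. The low value of wild-type brainstem array 1 carried most of its brainstem difference, which was 0.68 with that array and 0.22 without it. Cyp2d22 read -1.71, -1.87 and -1.86 in wild-type hippocampus and -2.05, -2.03 and -2.20 in knockout hippocampus, with no overlap, while its cortex difference was -0.02. Its second passing probe gave a mean difference of -0.07, and the Cyp2d12 and Cyp2d9 probes gave -0.20 and -0.15. The CYP2D genes are close copies, so which of them a probe reads is uncertain.

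Groups that did not overlap between genotypes were found for 3 members in cortex (Cyp4f14, Cyp7b1 and Cyp2j9, all higher in knockout), 4 in hippocampus (Cyp4f14 higher and Cyp2d22, Cyp2j13 and Cyp2u1 lower) and 2 in brainstem (Cyp7b1 higher and Cyp2w1 lower). Over all genes, 6.07%, 7.75% and 6.6% did not overlap in these comparisons. The 3 tests of whether the knockout difference itself differed between regions called none of the members and 0% of all genes. At an unadjusted p under 0.05 they found 1 member for hippocampus against cortex (0.834% of all genes), 0 for brainstem against cortex (0.882%) and 2 for brainstem against hippocampus (0.979%). Larger single values sat in dim members. Cyp2r1, which begins the activation of vitamin D, read -2.72 on knockout brainstem array 1 against -7.36 and -7.05 on the other arrays of that group. Cyp2c23, an arachidonic acid epoxygenase, read -4.18 on that same array against -8.90 and -5.84. This array had the lowest share of spots above background, and the part of that in these values was not tested. Cyp26a1, which clears retinoic acid, read -5.04, -3.64 and -5.37 in wild-type cortex and -6.10, -7.03 and -5.34 in knockout cortex. Its difference was -2.23 on the slide with 2 arrays of each genotype and 0.03 on the slide with 1 of each. Cyp2e1, which oxidises ethanol and fatty acids, had the largest mean knockout difference of the members, 0.88, which did not pass. It was 1.19 in cortex, 1.37 in hippocampus and 0.06 in brainstem. The gene passed the filter only through knockout cortex and knockout brainstem, so these differences are a description. Its levels ran from -8.94 to -6.57 in wild-type hippocampus and from -7.28 to -3.79 in wild-type brainstem, a spread as wide as any difference between its groups.

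The remaining comparisons asked how P450 levels differ between regions, separately in wild-type and knockout mice, which share no arrays. Between hippocampus and cortex of wild-type mice, 12 members were called, 3 higher and 9 lower in hippocampus, against 17.2% of all genes called (6.78% higher and 10.4% lower). Between brainstem and cortex, 19 were called, 12 higher and 7 lower in brainstem, against 35.8% (19.1% higher and 16.6% lower). Between brainstem and hippocampus, 18 were called, 11 higher and 7 lower in brainstem, against 41.5% (23% higher and 18.5% lower). In knockout mice, 10 members were called between hippocampus and cortex, 3 higher and 7 lower, against 16.6% of all genes (7.17% and 9.44%). There were 16 between brainstem and cortex, 10 higher and 6 lower, against 35.6% (18.9% and 16.7%), and 17 between brainstem and hippocampus, 12 higher and 5 lower, against 40.6% (21.7% and 18.9%). The 3 arrays of each region did not overlap for 18, 24 and 28 members in wild type, against 40.4%, 52.1% and 57.3% of all genes, and for 12, 18 and 21 in knockout mice, against 31.4%, 39.2% and 48.2%. A member that passed only through the region where it is high had to differ, so the same counts are given for the 30 members above background everywhere: 3 higher and 6 lower, 12 higher and 5 lower, and 10 higher and 4 lower in the 3 wild-type comparisons. In knockout mice they were 2 higher and 6 lower, 9 higher and 5 lower, and 10 higher and 4 lower. The shares above are over all genes, dim ones included, and are not matched to these counts. Of the members called in wild type, 9 of 12, 15 of 19 and 16 of 18 were called in the same direction in knockout mice. That was 75%, 78.9% and 88.9% of the wild-type calls and 90%, 93.8% and 94.1% of the knockout calls, and over all genes 76%, 87.7% and 84.9% of the wild-type calls and 78.8%, 88.1% and 86.8% of the knockout calls. In all, 26 members were called in some wild-type comparison, 22 in some knockout comparison and 21 in both, and 18 in none. In both genotypes 9 members were higher in brainstem than in both other regions (Cyp20a1, Cyp26b1, Cyp27a1, Cyp2j13, Cyp2j6, Cyp2s1, Cyp39a1, Cyp3a13 and Cyp4f16), 4 were higher in cortex (Cyp11a1, Cyp46a1, Cyp4b1 and Cyp4f15) and Cyp7b1 was higher in hippocampus. Likewise 3 were lower in brainstem than in both other regions (Cyp3a11, Cyp4f15 and Cyp4f18) and 3 lower in hippocampus (Cyp2s1, Cyp39a1 and Cyp4f14). These patterns, and the totals called in some comparison or in none, were counted for the members alone. No share over all genes stands beside them, so they only describe the members.

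**Figure D2:**
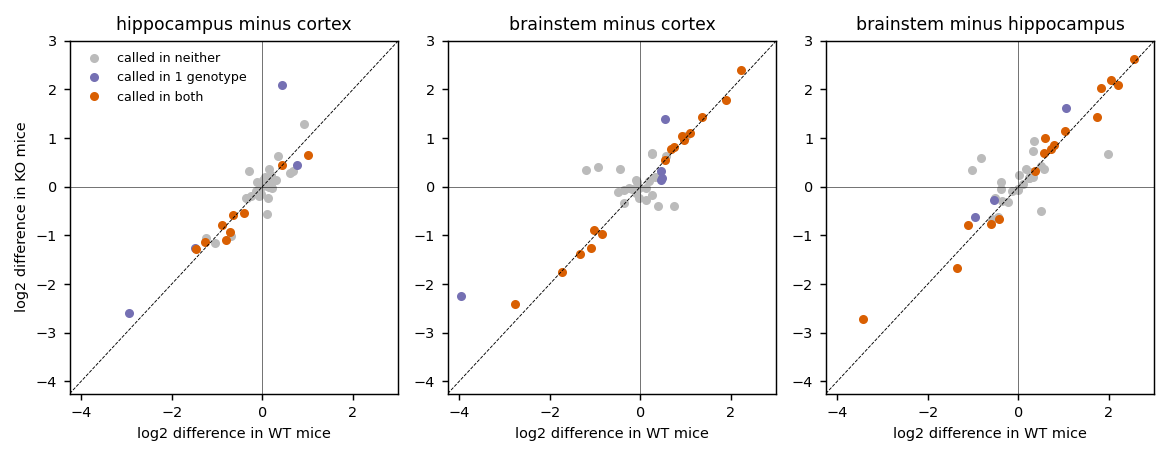
Regional differences of the 45 P450 genes in wild-type mice (horizontal axis) and knockout mice (vertical axis), in log2 units, for the 3 pairs of regions. Each point is a gene, coloured by whether it was called in neither genotype, in 1 or in both, and the dashed line marks equal differences. Genes called in both lie near that line, from Cyp3a11 at the lower left to Cyp27a1 at the upper right of the brainstem comparisons.

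Cell type and region markers moved with these comparisons. All 10 measured oligodendrocyte and myelin markers were higher in brainstem than in cortex in both genotypes, with a median difference of 1.15 in wild type and 1.25 in knockout, and the mean level of the list ran from 2.48 to 2.74 on the 6 cortex arrays and from 3.76 to 4.04 on the 6 brainstem arrays. Of 10 microglia markers, 5 were lower in brainstem than in cortex in each genotype. Among 11 neuron markers 2 were higher and 5 lower in brainstem than in cortex in each genotype, and among 10 astrocyte markers 6 were higher in wild type, 5 in knockout and 2 lower in each. Of 9 striatum markers, 8 were lower in hippocampus than in cortex in each genotype (median -2.40 in wild type and -1.87 in knockout), and in brainstem 7 were lower in wild type and 4 lower and 1 higher in knockout. The mean level of the striatum list was 0.73 to 1.34 on the 6 cortex arrays and at most -0.79 on the hippocampus arrays, beside the members highest in cortex (Cyp46a1, Cyp4f15, Cyp4b1 and Cyp11a1). On knockout brainstem array 3 the mean of this list was 0.86, within the cortex range, and on the other brainstem arrays -0.48 to 0.01. Of 13 choroid plexus markers, the mean level reached 0.44 to 1.0 on hippocampus wild-type arrays 1 and 2 and knockout array 1 and was -3.32 to -2.62 on the other 3 hippocampus arrays. The mean level of 8 cerebellum markers ran from -0.90 to -0.23 on the 6 brainstem arrays and from -2.73 to -2.30 on all others. That of 13 endothelial and mural cell markers ran from 0.47 to 0.56 on the brainstem arrays and from 0.02 to 0.36 on all others. The part of these cell types and regions in the regional P450 results was not tested. Cortex arrays shared no slide with the other regions, so for cortex the slide and the region cannot be told apart other than with the slide as a random block. Slide 2 held 1 array of each genotype from hippocampus and from brainstem, and on it all 18 wild-type and all 17 knockout differences called between these regions had the same sign as in the full fit. The arrays of slide 2 were part of the fit that gave the calls, so the shared sign is not an independent check.

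Of the 5 sterol enzymes, 2 were higher and 1 lower in wild-type brainstem than in cortex, beside 35.8% of all genes called (19.1% higher and 16.6% lower). Cyp27a1, a mitochondrial sterol hydroxylase of oxysterol and bile acid synthesis, read -3.61, -4.06 and -3.88 in wild-type cortex, -3.78, -4.37 and -4.39 in hippocampus, and -1.48, -1.69 and -1.73 in brainstem. In knockout mice it read -4.20, -3.96 and -4.14, -4.01, -4.49 and -4.50, and -1.24, -1.60 and -2.29 in the same order. Every brainstem array lay above every cortex and hippocampus array. Brainstem exceeded cortex by 2.22 with a standard error of 0.24 in wild type (limma, adjusted p = 4.15e-06) and by 2.39 in knockout (1.96e-06), and exceeded hippocampus by 2.55 and 2.63. Cyp39a1, an oxysterol hydroxylase of the bile acid pathway, read -1.10, -1.85 and -1.39 in wild-type cortex, -2.73, -2.94 and -3.05 in hippocampus, and -0.63, -0.89 and -0.60 in brainstem. Its knockout values were -1.49, -1.43 and -2.13, -2.73, -3.32 and -2.81, and -0.87, -0.84 and -0.86. The regions formed 3 separate levels in both genotypes, with hippocampus lowest and brainstem highest. Hippocampus was below cortex by -1.46 in wild type and -1.27 in knockout, brainstem was above hippocampus by 2.20 and 2.10 (standard error 0.21), and a second probe gave 2.23 and 2.31 for the latter difference.

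Cyp46a1, the neuronal cholesterol hydroxylase through which the brain disposes of cholesterol, ran the other way. It read 0.37, 0.75 and 0.36 in wild-type cortex, -0.31, -0.63 and -0.22 in hippocampus, and -0.23, -0.68 and -0.70 in brainstem. Its knockout values were -0.09, 0.72 and 0.55, -0.38, -0.20 and -0.63, and 0.00, -0.56 and -0.93. Cortex lay above both other regions without overlap in wild type, while in knockout mice cortex array 1 fell within the brainstem range. Brainstem was below cortex by -1.03 with a standard error of 0.25 in wild type (limma, adjusted p = 0.00426) and by -0.89 in knockout (0.0114). Hippocampus was below cortex by -0.88 (0.0237) and -0.80 (0.0402). Both calls between hippocampus and cortex were near the threshold. The wild-type call was lost with the slide as a random block (adjusted p = 0.074) and when wild-type cortex array 2 or hippocampus array 1 or 2 was left out. The knockout call was lost with the mouse as a block (0.0569), the slide as a random block (0.112) or no filter on dim probes (0.0672). It was also lost without knockout cortex array 2 or 3, knockout hippocampus array 1 or 3, knockout brainstem array 2, wild-type cortex array 1 or wild-type hippocampus array 1, with values from -0.63 to -0.81.

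Cyp7b1 was highest in hippocampus. Its levels there were 2.75, 2.61 and 2.61 in wild type and 2.70, 2.29 and 3.05 in knockout, against the cortex and brainstem values given above. Every wild-type hippocampal array exceeded every wild-type array of the other regions, whereas knockout hippocampus array 2 lay below knockout cortex array 1. Hippocampus exceeded cortex by 1.02 in wild type (standard error 0.18, limma, adjusted p = 0.00136) and by 0.65 in knockout (0.025), and brainstem was below hippocampus by -1.11 and -0.79. The knockout difference between hippocampus and cortex was lost with the slide as a random block (adjusted p = 0.0679) and when knockout cortex array 2 or 3 or knockout hippocampus array 1 or 3 was left out. Cyp51, the lanosterol demethylase of cholesterol synthesis, was not called in any comparison on the probe with the highest mean, which read from -1.26 to 0.56 over the 18 arrays. Brainstem minus cortex in wild type was 0.56 on that probe and 0.79 and 0.51 on its other passing probes, and brainstem minus hippocampus was 0.50, 0.84 and 0.70. On the other probes every wild-type brainstem array (-0.94 to -0.92 and -0.83 to -0.44) lay above every wild-type cortex and hippocampus array.

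**Figure D3:**
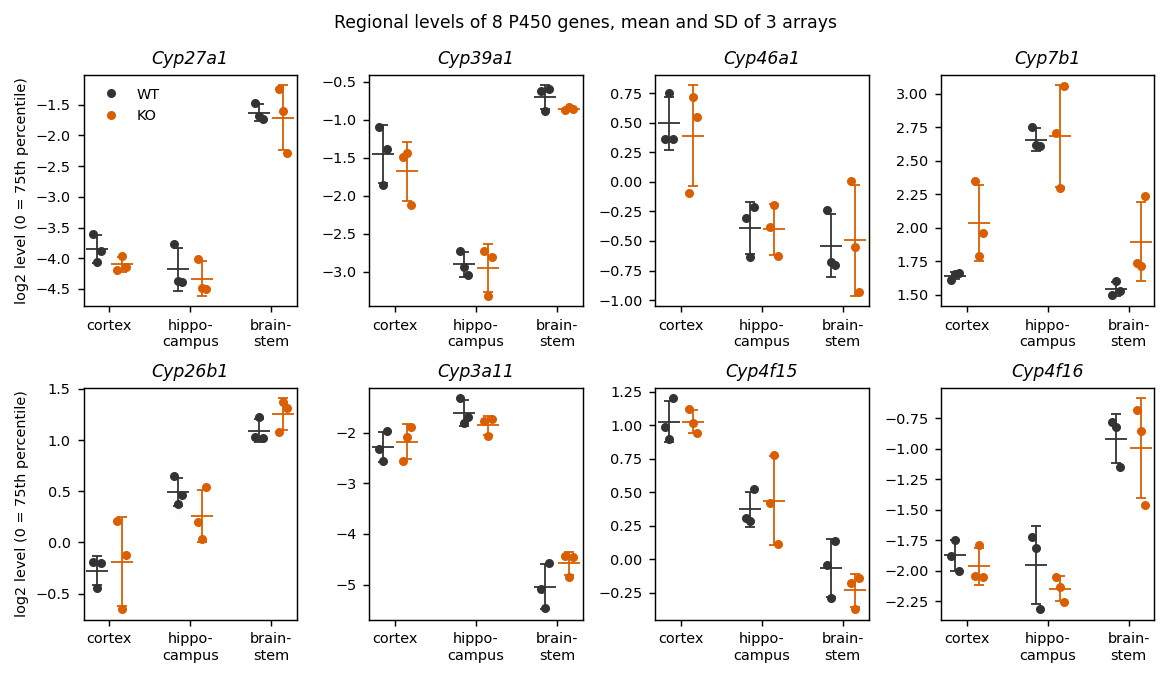
Levels of 8 P450 genes by region, in log2 units relative to the array's 75th percentile. Each point is 1 array, black for wild type and orange for knockout, with the horizontal line at the mean and the bar 1 SD of 3 arrays. Cyp27a1, Cyp39a1, Cyp26b1 and Cyp4f16 are highest in brainstem, Cyp46a1 and Cyp4f15 in cortex and Cyp7b1 in hippocampus, and Cyp3a11 is lowest in brainstem.

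Of the steroid hormone enzymes, Cyp11a1, which makes pregnenolone from cholesterol, was highest in cortex. It read -3.56, -3.12 and -3.42 in wild-type cortex, -4.10, -4.05 and -4.36 in hippocampus, and -4.57, -4.78 and -4.76 in brainstem. The wild-type regions did not overlap. Brainstem was below cortex by -1.34 in wild type (standard error 0.20, limma, adjusted p = 9.91e-05) and by -1.38 in knockout (7.69e-05), and hippocampus was below cortex by -0.80 and -1.09. The wild-type difference between hippocampus and cortex was lost when wild-type cortex array 2 was left out (adjusted p = 0.0598). Brainstem was below hippocampus by -0.53 in wild type (0.0449), and the knockout difference of -0.28 did not pass. The second passing probe gave -0.19 in wild type and -0.44 in knockout for this difference, and -0.90 and -1.51 for brainstem against cortex, so the smaller difference depends on the probe. Cyp19a1, aromatase, and Cyp17a1, the steroid hydroxylase and lyase, were not called in any regional comparison. Cyp19a1 group means ran from -5.54 to -4.83. The vitamin D enzymes Cyp2r1 and Cyp27b1 were not called either.

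Cyp26b1, which clears retinoic acid, rose from cortex over hippocampus to brainstem in wild-type mice. It read -0.19, -0.44 and -0.20 in wild-type cortex, 0.64, 0.38 and 0.46 in hippocampus, and 1.03, 1.22 and 1.02 in brainstem. Its knockout values were 0.21, -0.65 and -0.12, 0.20, 0.04 and 0.54, and 1.08, 1.37 and 1.31. The wild-type regions did not overlap, and in knockout mice cortex and hippocampus did. Brainstem exceeded cortex by 1.37 in wild type (standard error 0.19, limma, adjusted p = 4.16e-05) and by 1.44 in knockout (2.52e-05). Hippocampus exceeded cortex by 0.77 in wild type (0.00998), which was lost when wild-type hippocampus array 1 was left out, and the knockout difference of 0.45 did not pass (0.123), and was 0.64 (0.0254) without knockout cortex array 1 and 0.21 (0.443) without array 2. Cyp26a1 ran from -5.01 to -3.81 on the 6 hippocampus arrays and from -6.07 to -5.05 on the 6 brainstem arrays, without overlap. It was lower in brainstem than in hippocampus by -1.36 in wild type (adjusted p = 0.0304) and by -1.67 in knockout (0.0101). The wild-type call was lost when any of 4 arrays was left out (wild-type brainstem 1 or 2, wild-type hippocampus 2 or 3) and with the slide as a random block (0.0857). In knockout mice hippocampus exceeded cortex by a fitted 2.09 (0.00639), but only 1 of the 3 knockout cortex arrays was above background, so the size of that difference is uncertain.

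Among the 13 fatty acid and eicosanoid enzymes, 4 were higher and 3 lower in wild-type brainstem than in cortex, beside 35.8% of all genes called (19.1% higher and 16.6% lower). The omega-hydroxylases of the CYP4F family did not share a direction. Cyp4f16 read -1.88, -1.75 and -2.0 in wild-type cortex, -1.73, -1.81 and -2.31 in hippocampus, and -0.78, -0.82 and -1.15 in brainstem, and its brainstem arrays did not overlap the others. Brainstem exceeded cortex by 0.96 in wild type (standard error 0.19, limma, adjusted p = 0.00121) and by 0.97 in knockout. Cyp4f15 read 0.98, 0.90 and 1.20 in wild-type cortex, 0.31, 0.28 and 0.52 in hippocampus, and -0.04, -0.29 and 0.14 in brainstem. Its regions did not overlap in wild type, and brainstem was below cortex by -1.09 (standard error 0.16, adjusted p = 6.55e-05) and by -1.26 in knockout. By the RefSeq order on chromosome 17, Cyp4f16, Cyp4f15, Cyp4f14 and Cyp4f13 lie along 1 cluster of CYP4F genes. Between brainstem and cortex of wild-type mice their differences were 0.96, -1.09, -0.03 and 0.45, of which that of Cyp4f14 did not pass. Cyp4f13 ran from -0.96 to -0.21 over the 18 arrays, and its knockout difference of 0.33 did not pass. Cyp4f14 was lowest in hippocampus, by -0.40 against cortex in wild type and -0.54 in knockout. Cyp4f18, on chromosome 8, was lower in brainstem than in cortex by -0.86 and -0.96. CYP4F genes are similar in sequence, so part of a probe's signal can come from a relative.

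Cyp4b1, a hydroxylase of fatty acids and foreign compounds, was highest in cortex, at -3.58, -3.28 and -3.68 in wild type against -4.75, -4.76 and -4.84 in hippocampus and -5.65, -4.94 and -5.14 in brainstem. Cortex did not overlap the other regions. Brainstem was below cortex by -1.73 (standard error 0.26, limma, adjusted p = 9.98e-05) in wild type and -1.76 in knockout, and hippocampus by -1.27 and -1.14. The epoxygenases Cyp2j6 and Cyp2j13 were higher in brainstem. Cyp2j6 read -0.69, -0.70 and -0.79 in wild-type cortex, -0.83, -0.74 and -0.72 in hippocampus and 0.00, -0.12 and -0.02 in brainstem, a difference of 0.68 from cortex (standard error 0.14, adjusted p = 0.00113) that its second probe gave as 0.69. Cyp2j13 differed by 0.92 in wild type and 1.05 in knockout. Cyp2j9, at 2.22, 2.32 and 2.46 in wild-type cortex, was not called, nor were the fatty acid hydroxylases Cyp2u1 and Cyp4v3, whose levels ran from -2.98 to -2.26 and from -1.36 to -0.91 over the 18 arrays.

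**Figure D4:**
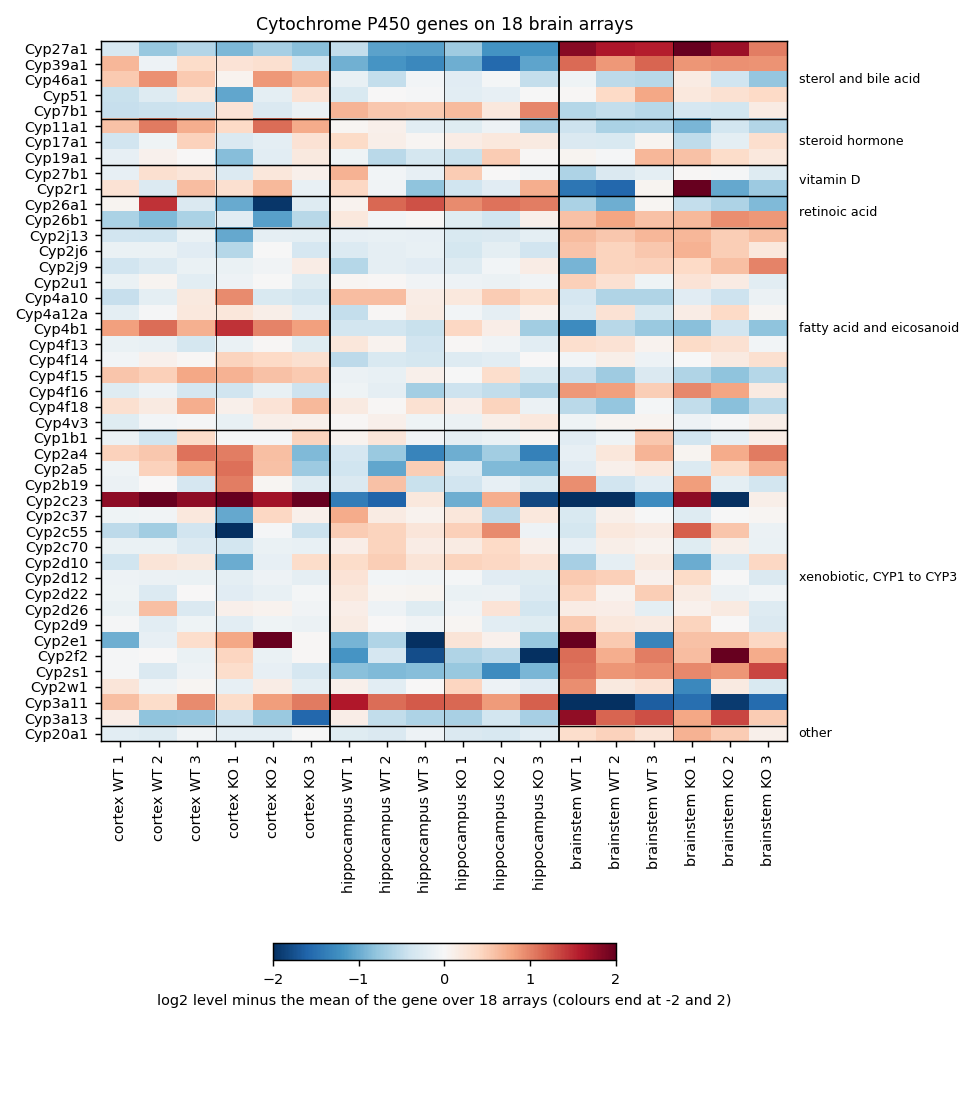
Levels of the 45 P450 genes on the 18 arrays, each gene shown as its log2 level minus its own mean over the arrays, ordered by role. Red is above and blue below the gene's mean, colours end at -2 and 2, thick lines part the regions and thin lines the genotypes. Cyp27a1 and Cyp3a11 change between brainstem and the other regions in opposite directions.

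Of the 19 members of the drug-metabolising families, 4 were higher and 2 lower in wild-type brainstem than in cortex, beside 35.8% of all genes called. Cyp3a11, a steroid and drug oxidase best known from liver, showed the largest regional difference among members above background on all arrays. It read -2.32, -2.56 and -1.97 in wild-type cortex, -1.32, -1.80 and -1.69 in hippocampus, and -5.09, -5.46 and -4.58 in brainstem. Its knockout values were -2.56, -2.09 and -1.88, -1.77, -2.07 and -1.72, and -4.44, -4.84 and -4.46. Every brainstem array lay below every other array, by -3.44 against hippocampus in wild type (standard error 0.23, limma, adjusted p = 3.57e-08) and by -2.72 in knockout (3.98e-07). Cyp3a13, of the same family, ran the other way, at -3.66, -4.59 and -4.58 in wild-type cortex, -3.66, -4.29 and -4.41 in hippocampus, and -2.02, -2.62 and -2.50 in brainstem. Brainstem exceeded cortex by 1.90 (standard error 0.33, adjusted p = 0.000337) and by 1.79 in knockout. The CYP3A genes are close copies, and the array does not settle which copy a probe reads.

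Cyp2s1, an oxidase of lipids and foreign compounds outside the liver, had 3 separate levels. It read 0.79, 0.51 and 0.71 in wild-type cortex, -0.02, -0.07 and -0.04 in hippocampus, and 1.88, 1.69 and 1.74 in brainstem. Brainstem exceeded hippocampus by 1.82 (standard error 0.17, limma, adjusted p = 1.01e-06) in wild type and 2.03 in knockout, and hippocampus was below cortex by -0.72 and -0.93. Cyp2f2, known for activating naphthalene in lung, read -5.47, -4.64 and -6.07 in wild-type hippocampus and -3.18, -3.57 and -3.28 in brainstem, a difference of 2.05 (standard error 0.44, adjusted p = 0.00161), with 2.20 in knockout. Cyp2d22 exceeded cortex in wild-type brainstem by 0.45 (adjusted p = 0.00983), and its knockout difference of 0.14 did not pass. Cyp1b1, which oxidises oestrogens and polycyclic hydrocarbons and ran from -3.36 to -2.42 over the 18 arrays, was not called between regions, and neither was Cyp2e1. Cyp20a1 was higher in brainstem than in cortex by 0.53 in wild type (adjusted p = 0.00402) and by 0.56 in knockout.

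Some of the largest differences rested on dim probes. Cyp2c23 passed only through wild-type and knockout cortex, so its differences from cortex are a description. Cyp2c23 read -4.18, -3.50 and -4.18 in wild-type cortex, -7.35, -7.56 and -5.75 in hippocampus, and -8.42, -8.12 and -7.22 in brainstem, where it was not well above background on any wild-type array. With brainstem signals raised to the lowest signal marked well above background, wild-type cortex was 5.59-fold higher than brainstem (limma, adjusted p = 0.00326 for the fitted difference). This ratio is not a strict lower limit. It carries no error, and some probes brighter than that signal were not marked well above background. With normexp background correction the fitted difference was -1.13 in place of -3.97. The knockout difference from cortex, -2.24, did not pass (0.0713) and was -3.31 (0.0082) without knockout brainstem array 1 and -0.95 (0.354) without array 2. The wild-type difference between hippocampus and cortex (adjusted p = 0.0396) was lost with the mouse as a block (0.0527), the slide as a random block (0.0839) or no filter on dim probes (0.0646). It was also lost without wild-type cortex array 1, 2 or 3, wild-type hippocampus array 1 or 2, wild-type brainstem array 2, knockout cortex array 2 or knockout hippocampus array 1, with values from -2.60 to -3.05. In knockout mice it was -2.59 and did not pass (0.0694). The brighter probe of Cyp2a4, a steroid and drug hydroxylase, passed only through wild-type cortex, so its difference there is a description. It was not well above background on any wild-type hippocampus array. With low signals raised in the same way, it was 2.55-fold higher in wild-type cortex than there. The second passing probe of Cyp2a4 gave hippocampus minus cortex as -0.21, against a fitted -1.49, and normexp correction gave -0.14. The second probe was well above background on 2 of 3 wild-type and all 3 knockout hippocampus arrays. In knockout mice the brighter probe was above background on 2 of 3 brainstem arrays (-5.93, -5.24 and -4.94) and on none of hippocampus (-6.97, -6.68 and -7.34). On it the knockout brainstem was 2.27-fold higher by the same ratio (limma, adjusted p = 0.00682 for the fitted difference of 1.62), a difference that the second probe, at -0.10, did not show. Normexp correction adds an offset of 50 to every signal, which shrinks differences of dim probes. With it the wild-type differences between brainstem and cortex became 1.38 for Cyp27a1, -1.62 for Cyp3a11, 1.09 for Cyp3a13, -0.91 for Cyp4b1 and -0.47 for Cyp11a1. Those between brainstem and hippocampus became 1.57 for Cyp27a1, -2.17 for Cyp3a11, 1.04 for Cyp3a13, 0.77 for Cyp2f2 and -0.53 for Cyp26a1, and all of these calls held.

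Of 13 genes for electron transfer and haem supply, none was called between genotypes in any region. Between brainstem and cortex, 5 were higher and 1 lower in wild type and 4 higher and 2 lower in knockout mice, beside 35.8% and 35.6% of all genes called. Fdx1, the ferredoxin that carries electrons to mitochondrial P450s such as CYP27A1 and CYP11A1, was higher by 0.56 (standard error 0.089, limma, adjusted p = 0.000175), and Fdxr, its reductase, by 0.44 (0.0254). Cyb5r1, Hmox1 and Hmox2 were also higher, and Fdx2 was lower by -0.53 (0.00152). Of 21 measured transcription factors that regulate P450 genes, none was called between genotypes, and 3 were higher (Nr1h3, Srebf1 and Vdr) and 5 lower (Ahr, Ahrr, Pparg, Rarb and Rxrg) in wild-type brainstem than in cortex, which is 8 of 21 beside 35.8% of all genes. Ahr, the dioxin receptor that drives CYP1 genes, was lower by -0.97 (adjusted p = 3.88e-05), and Nr1h3, an oxysterol-sensing receptor, was higher by 0.63 (0.000408). P450 genes with other symbols were Tbxas1, thromboxane synthase, and Ptgis, prostacyclin synthase. The level of Tbxas1 was lower in wild-type brainstem than in cortex by -0.37 (0.0194), and Ptgis was higher by 0.95 (0.0461). In the mean of the regions the knockout differences were -0.28 for Tbxas1 (adjusted p = 0.455) and -0.21 for Ptgis (0.814), and neither passed.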

How the data were processed

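Scanner files were made by the authors with Agilent Feature Extraction 10.7.3.1, per the file headers, and hold a background-subtracted, linear processed intensity for each spot. Here control spots and outlier spots were left out, the log2 intensities of a probe's spots were averaged, and the log2 of the array's 75th percentile was subtracted. A probe was kept where over 0.5 of its spots were well above background on all 3 arrays of a group (30063 probes), and of several probes for a gene the brightest on average was used. Symbols came from RefSeq through the probe's accession: 26690 of 41174 probes had 1 symbol, none had several and 14484 had none.

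Means of the 6 groups were fitted with limma 3.58.1 in R 4.3.3 to 22668 genes over all 18 arrays (12 residual degrees of freedom), with Benjamini-Hochberg adjustment. p-values measure the spread between 3 arrays a group, and this number limits the precision. Same-numbered arrays of the 2 genotypes in a region deviated together (all 9 correlations over 0.1, median 0.34, against -0.34 for other numbers), so the number was used as a block in an alternative. Each of these 9 pairs also shared a slide, so the correlations cannot tell a pairing from the slide. Taking deviations from means of 3 arrays also pulls the correlations of other numbers toward negative values. Whether a number also marks 1 mouse across regions is not stated beyond the mouse number in the labels, and 14 of 18 such pairs correlated over 0.1. The table of linear processed intensities deposited by the authors holds, for 7 of 18 columns, the values of another array than its title names, found by values within 1% of the scanner files, so it served as an alternative only. Normexp used median in place of mean spot signals, the column the files hold.

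The members and gene lists were chosen with earlier results of these data known. Genes named with values were those called between genotypes (none), up to 8 with the largest difference among those called in each wild-type comparison, a fixed list of brain P450s, the 4 with the smallest p for the mean knockout difference, and those whose probes disagree. Others (Cyp4f16, Cyp4f18, Cyp2j13, Cyp2d12, Cyp2d9 and the partner genes) were named after their values were seen.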

Additional observations from a re-analysis of the deposited data

How the results depend on the processing

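The count of members called between genotypes was 0 in each of the alternatives run, among them other normalization, background correction, filters, probe choice, variance moderation, slide as a block and leaving out each array (range 0 to 0). With the replicate block the regional counts were 13, 22 and 22 in wild type and 11, 20 and 21 in knockout mice, in the order hippocampus against cortex, brainstem against cortex and brainstem against hippocampus, and with the mouse as a block 12, 22 and 20, and 9, 19 and 21. The block changed no call between genotypes. Leaving out 1 array gave 6 to 14, 15 to 21 and 13 to 20 in wild type and 6 to 11, 15 to 18 and 16 to 18 in knockout mice, with the 6 reached for hippocampus against cortex without wild-type cortex array 2 and without knockout hippocampus array 1. In the deposited table, read by its column titles, the counts for hippocampus against cortex were 0 and 0, and its 6 hippocampus columns hold other arrays than their titles name. Of 370 counts, 366 stayed within 1.5 times. Of 1826 values of named genes under alternatives, 1748 kept their direction and side of the threshold, 58 lost their call (51 of them between hippocampus and cortex), 11 gained one and 9 uncalled values near 0 moved, and no called value changed sign. A block of arrays by mouse as a random effect was added after the data were seen. Dim members are limited by their signal over background.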
